A study of Mus musculus with 10 samples.

Results

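Genes of Wnt signalling were followed in sorted luminal and basal cells of the mouse mammary gland. The set holds 55 genes of the 24594 in the count table, taken by their names: every gene symbol of the Wnt, Frizzled (Fzd), R-spondin (Rspo), Lgr4 to Lgr6, Sfrp and Dkk families, together with the co-receptors Lrp5, Lrp6, Ror1, Ror2 and Ryk, the inhibitors Frzb and Wif1, the membrane ubiquitin ligases Rnf43 and Znrf3, the pathway target Axin2 and the cell marker Procr. Counted by role, these are 19 Wnt ligands, 10 Frizzled receptors, 5 co-receptors, 4 R-spondins, 3 Lgr receptors, 2 ubiquitin ligases, 10 secreted inhibitors, and Axin2 and Procr. The cells came from wild-type C57BL/6J mice, with no transgene and no treatment in either group, and the labels give no age. Luminal cells, which line the duct, and basal cells, the contractile outer layer, were sorted by FACS on EpCAM and CD49f, and bulk RNA-seq was carried out on 5 libraries of each. Library totals ranged from 13203146 to 17565471 counts in luminal and from 13676558 to 17998165 counts in basal libraries. Same-numbered luminal and basal libraries share a leading number in their description, which was read as the animal.

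Wnt ligands are secreted, lipid-modified proteins that bind Frizzled receptors on nearby cells. Together with Lrp5 or Lrp6 they stabilise beta-catenin, which acts with TCF/LEF proteins on target genes such as Axin2. With Ror1, Ror2 or Ryk they can act on cell shape and polarity instead. Rnf43 and Znrf3 remove Frizzled receptors from the membrane, and R-spondins bound to Lgr receptors block that removal. Sfrp proteins, Frzb and Wif1 bind the ligands themselves, whereas Dkk1, Dkk2 and Dkk4 bind the Lrp co-receptors. In the mammary gland the pathway is known for ductal branching and for the maintenance of basal stem cells, and Wnt4 is a known target of progesterone.

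The libraries were grouped by their cell type label. In all 10, the title gives the other cell type, while source name and description letter match the label. The markers followed the label. All 5 luminal markers (Krt8, Krt18, Krt19, Epcam, Prlr), all 5 hormone-sensing markers and all 4 luminal progenitor markers were called higher in luminal libraries, and all 7 basal markers (Krt5, Krt14, Trp63, Acta2, Myh11, Oxtr, Cnn1) were called higher in basal libraries. Sums of markers of other cell types were far below those of the 5 luminal markers in luminal and the 7 basal markers in basal libraries. The 7 fibroblast markers summed to 27.9 to 117 CPM in luminal and 28.6 to 46.9 CPM in basal libraries. Dcn, called higher in luminal libraries, reached 95.1 CPM in luminal replicate 1, whereas Pdgfra was called higher in basal libraries and the other 5 were not called. Summed likewise, the 4 endothelial markers gave 2.58 to 6.72 and 6.65 to 13.2 CPM. CPM is the count divided by the scaled library total, on the usual scale. The 4 pericyte markers gave 94.9 to 269 CPM in luminal libraries, of which Notch3, a gene luminal cells also express, made up 94.9 to 268 CPM, and 30.6 to 46.5 CPM in basal libraries. The other 3 pericyte markers were called higher in basal libraries: Rgs5 was at 16.9 to 28.9 CPM there and 0 to 0.797 CPM in luminal libraries, Pdgfrb at 6.86 to 13.1 and 0 to 1.33 CPM, and Cspg4 at 1.39 to 5.81 and 0 to 0.0613 CPM. The 5 immune markers summed to 4.13 to 11.3 CPM in luminal and 12.2 to 34.4 CPM in basal libraries, with Cd3e at 0 in all 10. Of these, Cd74 was called higher in basal libraries, at 11.6 to 30.5 against 1.00 to 3.74 CPM, while Cd52 and Lyz2 were called higher in luminal libraries. The 3 adipocyte markers summed to 0.611 to 1.59 CPM in luminal and 3.95 to 8.88 CPM in basal libraries, with Adipoq at 0 in all 10, and the 2 red cell markers to 3.37 to 16.8 and 0 to 0.188 CPM. The study's sorting method also stains red, endothelial and immune cells with lineage antibodies to TER-119, CD31 and CD45, a step the labels of these libraries do not mention. In basal libraries the means of Rgs5 and Cd74, 21.7 and 20.7 CPM, were above those of Wif1 (10.1 CPM), Procr (8.33 CPM) and Axin2 (7.33 CPM). The part of other cell types in the results was not tested.

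Of the 55 genes, 35 had enough counts in enough libraries to be tested and 20 did not. Of the 35, 32 were called at an adjusted p under 0.05, 8 towards luminal and 24 towards basal cells. Over all 14609 genes tested, 64.8% were called, 33.6% towards luminal and 31.2% towards basal cells. Among the 35, 27 changed at least 2-fold, 6 of them up in luminal and 21 up in basal cells, where 40.0% of all genes tested did. The groups did not overlap for 27 of the 35, against 50.1% of all genes tested. The median log2 fold change, luminal minus basal, was -1.79 over the 35 genes and 0.05 over all genes tested. In bulk libraries, fewer cells with a transcript and less of it per cell cannot be told apart, and a luminal library averages over hormone-sensing and progenitor cells.

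**Figure D1:**
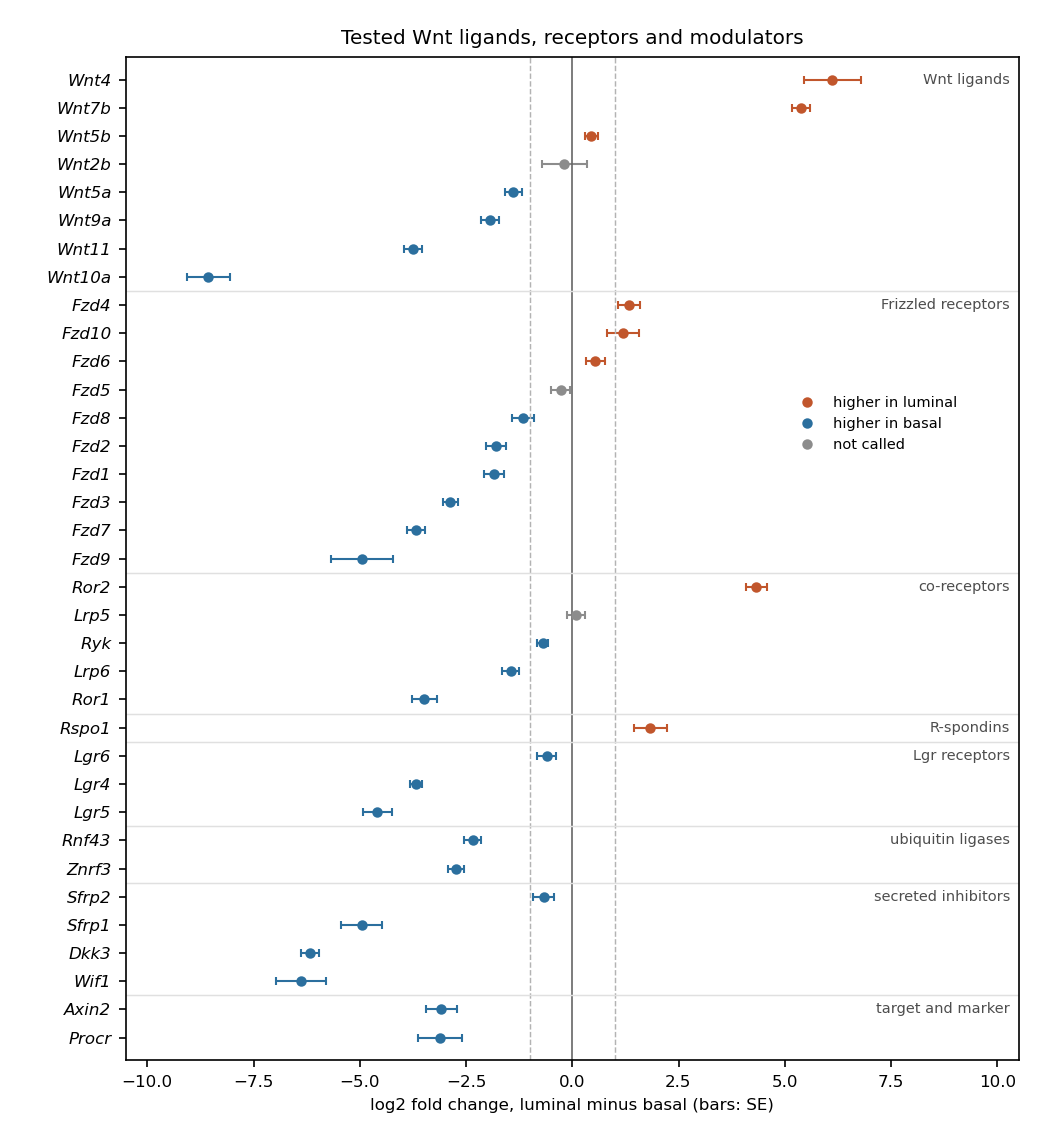
Log2 fold change, luminal minus basal, of the 35 tested genes, grouped by role. Points are estimates of edgeR's quasi-likelihood test, bars are 1 standard error, colour gives the call, and dashed lines mark a 2-fold change. Ligands lie on both sides of 0, from 6.12 for Wnt4 to -8.56 for Wnt10a, whereas all Lgr receptors, ubiquitin ligases and tested inhibitors lie on the basal side.

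Among the ligands, Wnt4 and Wnt7b were expressed in luminal cells, and Wnt10a, Wnt11, Wnt9a and Wnt5a were higher in basal cells. Wnt5b was expressed in both, with a small difference. Wnt4, the ligand of progesterone-driven side branching, is at chr4:137277635-137299501 on the plus strand (GRCm38). It was at 163, 138, 99.9, 191 and 146 CPM in luminal replicates 1 to 5 and at 0.312, 0.341, 0.774, 7.81 and 1.14 CPM in basal replicates 1 to 5. All luminal libraries lay far above all basal ones, and basal replicate 4 stood apart from the other basal libraries. Luminal exceeded basal by 6.12 on the log2 scale (SE 0.68, adjusted p = 2.21e-06). Without basal replicate 4 it was 7.81, with the replicate number as a block it was 6.81, and with limma voom it was 7.16. The 250 bases before the Wnt4 start are shown because it is the ligand with the largest luminal excess, beside those of the Frizzled and Lgr receptors with the highest basal level. Capitals mark the core of the TCF/LEF site, CTTTGA or CTTTGT, read on both strands (ACAAAG is CTTTGT on the other strand). The sequences are from RefSeq on GRCm38.p6 and run 5′ to 3′ on the strand of the gene, which is plus for all of them.
Wnt4, chr4:137277385-137277634: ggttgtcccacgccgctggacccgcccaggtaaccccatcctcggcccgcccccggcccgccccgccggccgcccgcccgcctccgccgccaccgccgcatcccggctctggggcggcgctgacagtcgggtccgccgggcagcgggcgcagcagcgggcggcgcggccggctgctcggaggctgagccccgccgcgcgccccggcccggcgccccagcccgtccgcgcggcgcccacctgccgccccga
Fzd7, chr1:59481897-59482146: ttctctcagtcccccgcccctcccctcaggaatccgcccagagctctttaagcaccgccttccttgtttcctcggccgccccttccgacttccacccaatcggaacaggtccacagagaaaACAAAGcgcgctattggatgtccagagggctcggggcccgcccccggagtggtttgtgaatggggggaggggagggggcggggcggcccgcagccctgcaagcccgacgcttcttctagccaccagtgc
Lgr4, chr2:109917397-109917646: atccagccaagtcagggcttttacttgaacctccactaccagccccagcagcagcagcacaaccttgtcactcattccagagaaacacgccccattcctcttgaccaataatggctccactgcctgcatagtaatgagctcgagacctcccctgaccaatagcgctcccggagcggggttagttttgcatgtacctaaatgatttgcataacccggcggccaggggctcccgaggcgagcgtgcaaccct
In these stretches only Fzd7 holds a core, and it holds 1. Of 41 start windows of 300 bases that the table lists for 37 of the 55 genes, 26.8% held either core, against 31.2% of all 32851 windows. By single motif the shares were 14.6% and 16.0% for CTTTGA, and 17.1% and 18.7% for CTTTGT. A match of these letters is a description of the window and not a binding site.

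Wnt7b, which is also known from lung and kidney development, lies on chr15:85535437-85581821. Its level was 180, 114, 147, 104 and 187 CPM in luminal replicates 1 to 5, and 2.93, 3.27, 3.64, 4.19 and 3.60 CPM in basal replicates 1 to 5. The groups did not overlap, and the basal values were evenly low. Its log2 fold change came to 5.37 (SE 0.21, adjusted p = 1.40e-10). An antisense gene covers 5.12% of its exon bases, and the counting was not stated to use strand.

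Wnt10a, a ligand of the beta-catenin branch known for hair and tooth growth, was at 0, 0, 0.0613, 0.534 and 0.0634 CPM in luminal replicates 1 to 5. In basal replicates 1 to 5 it was at 68.7, 43.4, 38.8, 32.7 and 46.4 CPM. It was all but restricted to basal libraries, with 9 counts over the luminal and 3537 over the basal libraries. The ratio of pooled levels, basal over luminal, was 413, with an exact interval (95%, counting error only) of 217 to 903. The fitted log2 fold change was -8.56 (SE 0.51, adjusted p = 4.65e-09), and -10.25 without luminal replicate 4. Wnt6 lies next to Wnt10a on chromosome 1, with a gap of 6696 bases. It was not tested, because too few libraries held enough counts of it. Wnt6 was at 3.49, 3.48, 2.32, 0.0625 and 2.82 CPM in basal replicates 1 to 5. In luminal replicates 1 to 5 it was at 0.250, 0, 0, 0 and 0 CPM. All basal libraries but replicate 4 lay above the luminal ones. The pooled ratio was 48.6 (18.7 to 180), and all 4 luminal counts behind it came from luminal replicate 1.

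Wnt11, a ligand mostly linked to cell movement without beta-catenin, was at 222, 206, 177, 160 and 175 CPM in basal replicates 1 to 5. Luminal replicates 1 to 5 gave 21.1, 11.6, 16.1, 10.1 and 11.5 CPM. The lowest basal value was well above the highest luminal value, with a log2 fold change of -3.74 (SE 0.21, adjusted p = 2.66e-09). An antisense gene covers 10.1% of its exon bases. Wnt9a, known from joint formation, was at 12.2, 13.2, 15.3, 11.6 and 15.2 CPM in basal and at 3.75, 4.42, 2.76, 3.51 and 3.11 CPM in luminal replicates 1 to 5. Its groups did not overlap either (log2 fold change -1.94, SE 0.21, adjusted p = 1.47e-06). Wnt5a, the main ligand of Ror receptors, was at 119, 206, 170, 125 and 172 CPM in basal and at 81.1, 47.5, 58.1, 44.6 and 70.5 CPM in luminal replicates 1 to 5. It was higher in basal cells in all pairs and in all libraries (log2 fold change -1.39, SE 0.20, adjusted p = 2.81e-05), yet it was present in both cell types.

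Wnt5b, a close relative of Wnt5a, ranged from 89.4 to 140 CPM in luminal and from 70.7 to 92.9 CPM in basal libraries. These ranges overlapped, and the difference was small (log2 fold change 0.45, SE 0.15, adjusted p = 0.0162). Wnt2b was low in both, at 0.634 to 1.78 CPM in luminal and 0.387 to 2.38 CPM in basal libraries. Its difference was not called (log2 fold change -0.18, SE 0.52, adjusted p = 0.773).

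The other ligands, Wnt1, Wnt2, Wnt3, Wnt3a, Wnt6, Wnt7a, Wnt8a, Wnt8b, Wnt9b, Wnt10b and Wnt16, lacked enough counts in enough libraries for the test. Wnt3 had 273 counts over the basal libraries, yet it was at 15.4 CPM in basal replicate 4, 1.56 CPM in basal replicate 5 and 0 in the other basal libraries. In luminal libraries it was at 1.27 CPM in replicate 5 and at 0 in the others. Its level thus rested on a single library. Wnt10b was at 0.499, 0.136, 0.232, 2.06 and 0.420 CPM in basal and at 0.188, 0.369, 0.307, 0.916 and 0 CPM in luminal replicates 1 to 5. Replicate 4 was the highest in both cell types, and the groups overlapped. Wnt2 reached 2.19 CPM in luminal replicate 1 and at most 0.250 CPM in any other library. The untested ligands other than Wnt2, Wnt3, Wnt6 and Wnt10b stayed at or below 0.613 CPM in every library, where 3 counts amount to 0.158 to 0.232 CPM. At this depth such values do not show whether a transcript is absent.

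**Figure D2:**
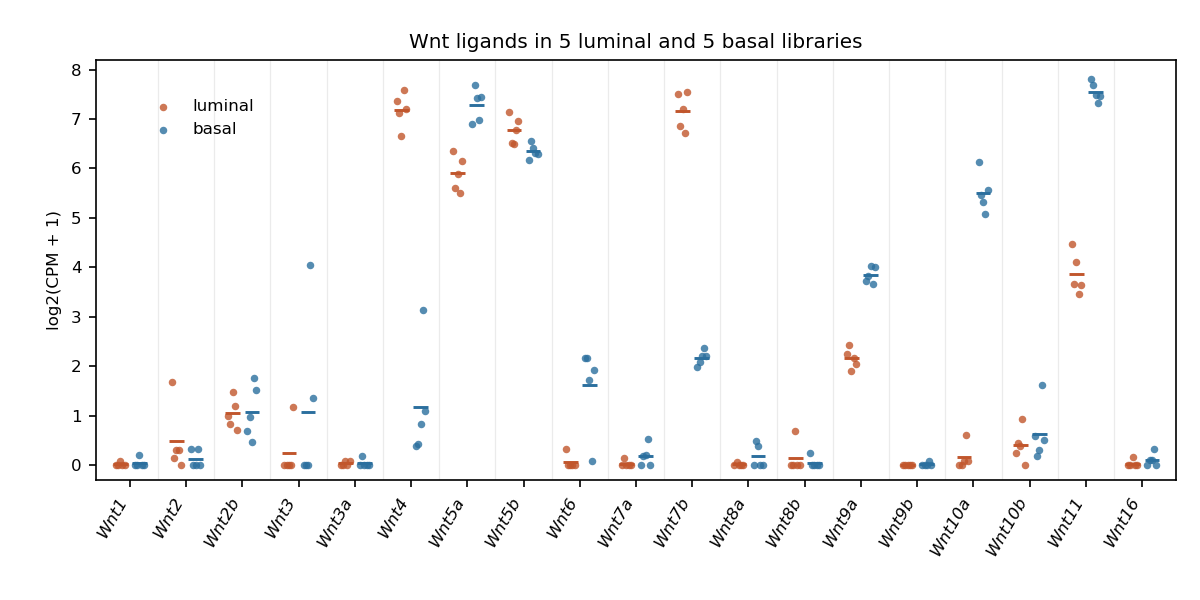
Level of the 19 Wnt ligands as log2(CPM + 1), on the vertical axis, in each of 5 luminal and 5 basal libraries. Points are libraries and lines are group means of the plotted values. Wnt4 and Wnt7b are high in luminal libraries, Wnt10a and Wnt11 in basal libraries, and basal replicate 4 stands above the other basal libraries for Wnt3 and Wnt4.

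Levels of different genes were compared per kilobase of exon, as CPM per kb. Summed over the ligands, the totals of the cell types overlapped in range, at 123 ± 20.7 CPM per kb (SD, n = 5) in luminal and 132 ± 10.8 CPM per kb (SD, n = 5) in basal libraries, but the ligands behind them were different. In luminal libraries Wnt5b made up 33.7% ± 1.10 (SD, n = 5) of the sum, Wnt4 28.8% ± 6.01 and Wnt7b 25.8% ± 4.79. The ranges of these neighbours in the order overlapped, and the next ligand, Wnt5a, at 6.95% ± 1.08, lay below all of them in every library. In basal libraries Wnt11 led with 39.3% ± 2.77 (SD, n = 5), above Wnt5b in every library. It was followed by Wnt5b with 23.2% ± 2.46, Wnt5a with 17.0% ± 3.34 and Wnt10a with 14.0% ± 3.55. Wnt5b lay above Wnt5a in all 5 libraries and Wnt5a above Wnt10a in 4, although the ranges overlapped in both cases, and Wnt10a lay above Wnt9a in all 5 with no overlap. Without division by length, the basal share of Wnt5a, which has the longest exons of the ligands, was 31.5%, and that of Wnt5b was 16.2%. The luminal order changed too, with Wnt4 at 30.6%, Wnt7b at 30.1%, Wnt5b at 22.7% and Wnt5a at 12.4%.

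Most Frizzled receptors were higher in basal cells, with Fzd7 far in front. All 10 were tested, 6 were called higher in basal and 3 higher in luminal cells, and Fzd5 was not called. Fzd7, at chr1:59482147-59486955 on the plus strand, is known as a receptor of basal mammary stem cells. Its level was 2028, 1663, 1778, 1355 and 2042 CPM in basal replicates 1 to 5, and 167, 151, 156, 85.7 and 133 CPM in luminal replicates 1 to 5. The groups were an order of magnitude apart, and replicate 4 was the lowest in both. A log2 fold change of -3.68 was fitted (SE 0.22, adjusted p = 3.75e-09). Fzd7 made up 84.6% ± 1.83 (SD, n = 5) of the Frizzled sum per kilobase in basal and 41.8% ± 6.07 in luminal libraries. In both cell types it lay above every other Frizzled in every library. The sum of all Frizzled levels was 461 ± 65.7 CPM per kb (SD, n = 5) in basal and 74.1 ± 19.7 CPM per kb (SD, n = 5) in luminal libraries.

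Fzd3, a receptor of axon guidance and planar polarity, was at 148, 116, 111, 88.9 and 140 CPM in basal and at 18.5, 15.2, 17.0, 12.9 and 18.8 CPM in luminal replicates 1 to 5. The difference was clear of the spread in both groups (log2 fold change -2.87, SE 0.17, adjusted p = 4.68e-09). Fzd1, a close relative of Fzd7, was at 98.5, 117, 127, 109 and 109 CPM in basal and at 43.7, 40.1, 31.3, 13.8 and 27.9 CPM in luminal replicates 1 to 5. Luminal replicate 4 was again the lowest, and the groups did not overlap (log2 fold change -1.83, SE 0.24, adjusted p = 1.15e-05). Fzd2, of the same subfamily, was at 22.0, 40.9, 48.4, 38.4 and 33.6 CPM in basal and at 15.3, 7.27, 11.9, 8.02 and 10.4 CPM in luminal replicates 1 to 5. Basal replicate 1 came closest to the luminal range without entering it (log2 fold change -1.79, SE 0.24, adjusted p = 1.55e-05).

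Fzd8, a partner of Lrp6 in beta-catenin signalling, was at 30.2, 23.6, 19.3, 18.1 and 27.2 CPM in basal and at 16.7, 7.16, 11.3, 6.11 and 11.4 CPM in luminal replicates 1 to 5. Its groups lay close together but did not overlap (log2 fold change -1.17, SE 0.26, adjusted p = 0.00118). Fzd9 was low in basal and near the limit of detection in luminal libraries, at 2.81, 1.57, 1.32, 3.31 and 1.74 CPM in basal and at 0.188, 0, 0.123, 0 and 0 CPM in luminal replicates 1 to 5. With 5 luminal and 167 basal counts, the pooled ratio was 35.1 (14.7 to 109), and the fitted log2 fold change was -4.94 (SE 0.73, adjusted p = 3.69e-05). Without luminal replicate 1 the fitted value was -5.77.

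Fzd4, the receptor of norrin in blood vessels, was instead higher in luminal cells, at 50.2, 25.9, 46.6, 23.4 and 57.0 CPM in luminal and at 14.0, 19.2, 15.5, 11.3 and 21.0 CPM in basal replicates 1 to 5. Luminal replicates 2 and 4 came close to the basal range, yet no library crossed it (log2 fold change 1.33, SE 0.26, adjusted p = 0.000443). Fzd10 had the largest SD of log2(CPM + 1) among the Frizzled receptors of luminal cells, at 1.00. It was at 42.0, 6.11, 19.6, 20.8 and 33.2 CPM in luminal and at 8.73, 9.41, 12.1, 8.94 and 14.0 CPM in basal replicates 1 to 5. Luminal replicate 2 lay below all basal libraries, so the groups overlapped (log2 fold change 1.19, SE 0.37, adjusted p = 0.0117), and with limma voom the call was lost (adjusted p = 0.0754).

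Fzd6, a polarity receptor known for hair patterning, ranged from 34.4 to 80.5 CPM in luminal and from 28.1 to 42.2 CPM in basal libraries. It was just past the threshold (log2 fold change 0.54, SE 0.23, adjusted p = 0.0477), and 12 of the alternative settings ended the call. Fzd5 ranged from 12.5 to 35.7 CPM in luminal and from 24.9 to 39.0 CPM in basal libraries and was not called (log2 fold change -0.28, SE 0.23, adjusted p = 0.313). An antisense gene covers 17.8% of the exon bases of Fzd5 and 3.47% of those of Fzd6.

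Related co-receptors differed from each other. Lrp5 was not called and Lrp6 was higher in basal cells, while the related kinases Ror1 and Ror2 changed in opposite directions. Lrp5 was at 368, 210, 219, 147 and 258 CPM in luminal and at 181, 255, 247, 218 and 234 CPM in basal replicates 1 to 5. The basal values lay within the luminal range, and the difference was not called (log2 fold change 0.08, SE 0.21, adjusted p = 0.738). Lrp6 was at 462, 304, 331, 236 and 410 CPM in basal and at 171, 109, 125, 99.3 and 134 CPM in luminal replicates 1 to 5. Here the groups did not overlap (log2 fold change -1.45, SE 0.20, adjusted p = 1.90e-05). Per kilobase, Lrp5 was above Lrp6 in all 5 luminal libraries, at 40.0 ± 13.6 and 13.6 ± 2.94 CPM per kb (SD, n = 5), but the 2 were at 37.8 ± 4.86 and 37.2 ± 9.50 CPM per kb (SD, n = 5) in basal libraries, where their ranges overlapped.

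Ror2, a receptor of Wnt5a, was at 15.6, 14.3, 17.7, 12.9 and 14.8 CPM in luminal and at 0.873, 0.478, 0.619, 0.750 and 0.959 CPM in basal replicates 1 to 5. The values were tight in both groups (log2 fold change 4.33, SE 0.25, adjusted p = 3.07e-09). Ror1 was at 13.6, 20.2, 17.0, 15.4 and 14.1 CPM in basal and at 1.25, 1.21, 0.797, 1.37 and 2.54 CPM in luminal replicates 1 to 5. It mirrored Ror2, again with no overlap (log2 fold change -3.48, SE 0.29, adjusted p = 1.25e-07). Ryk, an atypical receptor without kinase activity, ranged from 76.4 to 119 CPM in luminal and from 136 to 164 CPM in basal libraries (log2 fold change -0.70, SE 0.14, adjusted p = 0.000527).

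Of the R-spondins only Rspo1 had enough counts to be tested, and it was low but higher in luminal cells. It was at 3.19, 3.58, 2.51, 2.83 and 5.01 CPM in luminal and at 0.624, 1.43, 0.696, 0.625 and 1.38 CPM in basal replicates 1 to 5. Every luminal library exceeded every basal one (log2 fold change 1.84, SE 0.39, adjusted p = 0.000812). Rspo2, Rspo3 and Rspo4 stayed at or below 0.211 CPM in all 10 libraries. Rspo4 had no count in basal libraries.

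The Lgr receptors, which bind R-spondins, were higher in basal cells. Lgr4, the most widely expressed of them, was at 404, 445, 450, 417 and 416 CPM in basal and at 29.3, 34.6, 31.5, 30.5 and 40.4 CPM in luminal replicates 1 to 5. The basal values varied little, and the gap between the groups was wide (log2 fold change -3.68, SE 0.14, adjusted p = 1.16e-10). Lgr5, a stem cell marker of the gut, was at 57.9, 46.0, 77.5, 54.5 and 59.3 CPM in basal and at 2.13, 0.790, 4.05, 1.83 and 3.49 CPM in luminal replicates 1 to 5. It too showed no overlap (log2 fold change -4.59, SE 0.34, adjusted p = 3.27e-08). Lgr6, known from skin stem cells, ranged from 38.5 to 49.9 CPM in basal and from 17.5 to 42.2 CPM in luminal libraries. These overlapped, and the small difference (log2 fold change -0.60, SE 0.23, adjusted p = 0.0307) lost its call with upper-quartile factors (adjusted p = 0.0678), with library totals (adjusted p = 0.131) and without luminal replicate 2, 3 or 4 or basal replicate 2 or 3 (adjusted p between 0.0587 and 0.0768).

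Per kilobase, the order of the Lgr receptors was not the same in both cell types. In basal libraries Lgr4 made up 81.7% ± 1.84 (SD, n = 5), Lgr5 12.1% ± 1.91 and Lgr6 6.25% ± 0.424 of the sum, with no overlap of levels between neighbours. In luminal libraries Lgr4 made up 58.9% ± 9.20 (SD, n = 5), Lgr6 36.6% ± 8.73 and Lgr5 4.53% ± 2.27. There the levels of Lgr4 and Lgr6 overlapped, whereas Lgr6 was above Lgr5 in every library. The summed level was 103 ± 5.88 CPM per kb (SD, n = 5) in basal and 11.3 ± 2.12 CPM per kb (SD, n = 5) in luminal libraries.

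The ubiquitin ligases that clear Frizzled receptors from the membrane, and that are themselves targets of the pathway in several tissues, were both higher in basal cells. Rnf43 was at 249, 169, 156, 123 and 190 CPM in basal and at 44.7, 31.8, 37.7, 26.0 and 34.4 CPM in luminal replicates 1 to 5. Replicate 1 was the highest and replicate 4 the lowest in both groups, and the groups did not overlap (log2 fold change -2.34, SE 0.20, adjusted p = 1.45e-07). Znrf3 was at 33.6, 30.6, 24.7, 25.1 and 37.6 CPM in basal and at 5.00, 3.84, 5.34, 3.89 and 4.76 CPM in luminal replicates 1 to 5. The gap exceeded the spread of either group (log2 fold change -2.73, SE 0.19, adjusted p = 1.55e-08).

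**Figure D3:**
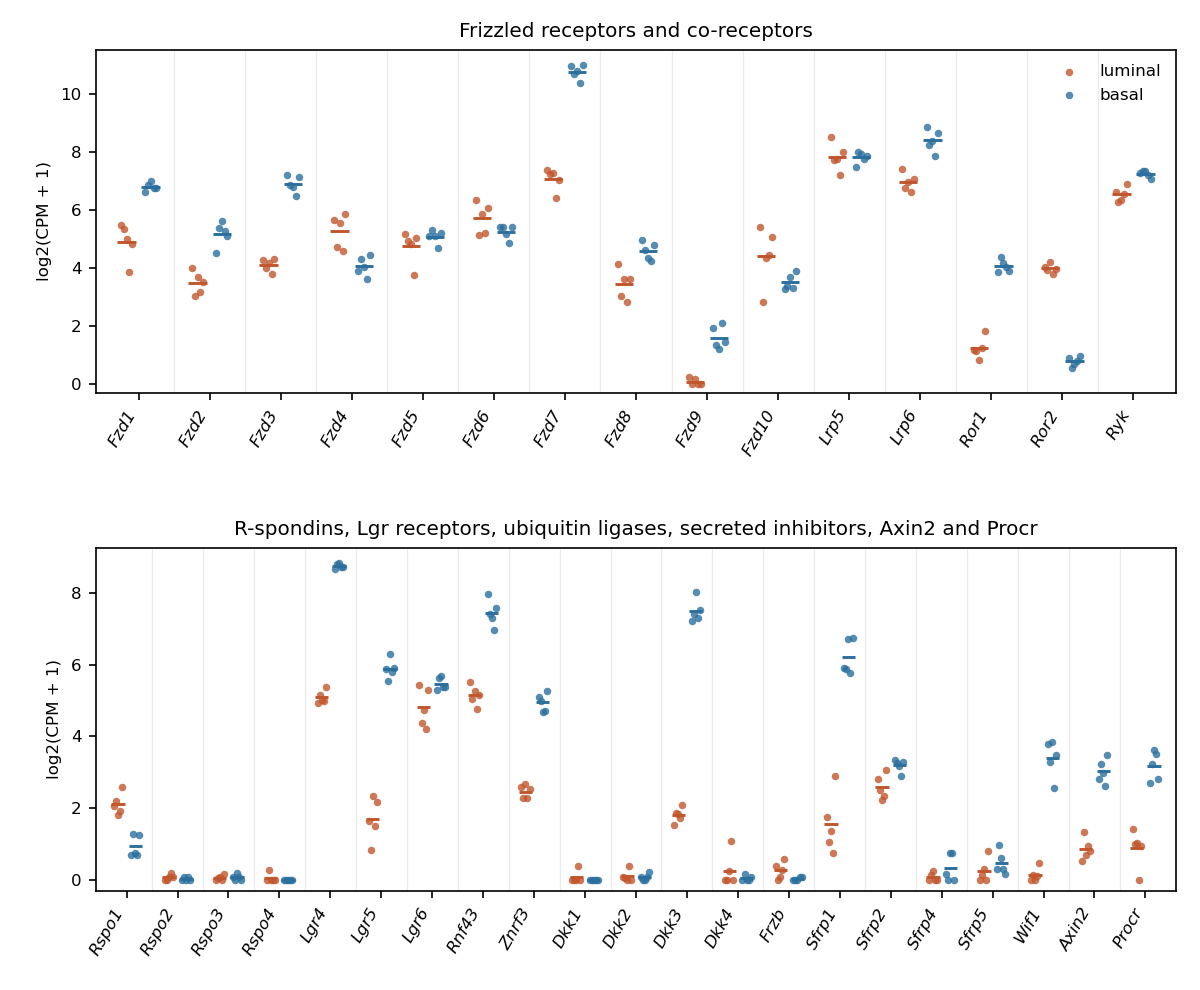
Level of Frizzled receptors and co-receptors (upper panel) and of the remaining receptors, ligases, inhibitors, Axin2 and Procr (lower panel) as log2(CPM + 1), on the vertical axes, in each of 5 luminal and 5 basal libraries. Points are libraries and lines are group means of the plotted values. Fzd7, Lgr4, Rnf43 and Dkk3 are high and well separated in basal libraries, Ror2 and Rspo1 are higher in luminal libraries, and Lrp5 and Fzd5 overlap.

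All 4 secreted inhibitors that could be tested, Dkk3, Sfrp1, Wif1 and Sfrp2, were higher in basal cells. Dkk3, a divergent member of the Dkk family whose effect on Wnt signalling is disputed, was at 147, 169, 258, 156 and 181 CPM in basal and at 1.88, 2.63, 2.58, 2.29 and 3.24 CPM in luminal replicates 1 to 5. The separation was the most certain of all tested members by adjusted p (log2 fold change -6.17, SE 0.22, adjusted p = 5.92e-11). Sfrp1, a decoy that binds Wnt ligands, was at 58.9, 58.1, 104, 53.5 and 105 CPM in basal and at 2.38, 1.11, 1.59, 0.687 and 6.41 CPM in luminal replicates 1 to 5. Luminal replicate 5, which also had the highest sum of basal markers among luminal libraries at 78.9 CPM, was the highest luminal value, but still far below the basal libraries (log2 fold change -4.96, SE 0.48, adjusted p = 6.03e-07). Without it the log2 fold change was -5.70.

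Wif1, which also traps Wnt ligands, was at 12.8, 8.87, 13.4, 4.94 and 10.2 CPM in basal and at 0, 0.105, 0, 0.0764 and 0.381 CPM in luminal replicates 1 to 5. It had 759 basal and 9 luminal counts, and the pooled ratio was 88.6 (46.4 to 194). The fitted log2 fold change was -6.38 (SE 0.60, adjusted p = 3.96e-07), and -7.53 without luminal replicate 5. Sfrp2, of the same family as Sfrp1, ranged from 6.50 to 9.23 CPM in basal and from 3.68 to 7.42 CPM in luminal libraries, which overlapped. Its small difference (log2 fold change -0.67, SE 0.24, adjusted p = 0.0243) was lost with upper-quartile factors (adjusted p = 0.0544), with library totals (adjusted p = 0.0913) and without luminal replicate 2 or 3 or basal replicate 5 (adjusted p between 0.0504 and 0.0548). An antisense gene covers 17.3% of its exon bases.

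Dkk1, Dkk2, Dkk4, Frzb, Sfrp4 and Sfrp5 had too few counts for the test. Dkk4 reached 1.15 CPM in luminal replicate 4, and every other value of these genes was at or below 0.955 CPM. Dkk1 had no count in basal libraries and was counted in luminal replicate 4 alone. Summed per kilobase, the inhibitors stood at 80.5 ± 19.1 CPM per kb (SD, n = 5) in basal and 4.39 ± 1.43 CPM per kb (SD, n = 5) in luminal libraries. Dkk3 made up 67.5% ± 4.09 (SD, n = 5) of the basal sum and Sfrp1 21.3% ± 3.75, while Sfrp2 made up 59.4% ± 8.95 of the luminal sum.

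**Figure D4:**
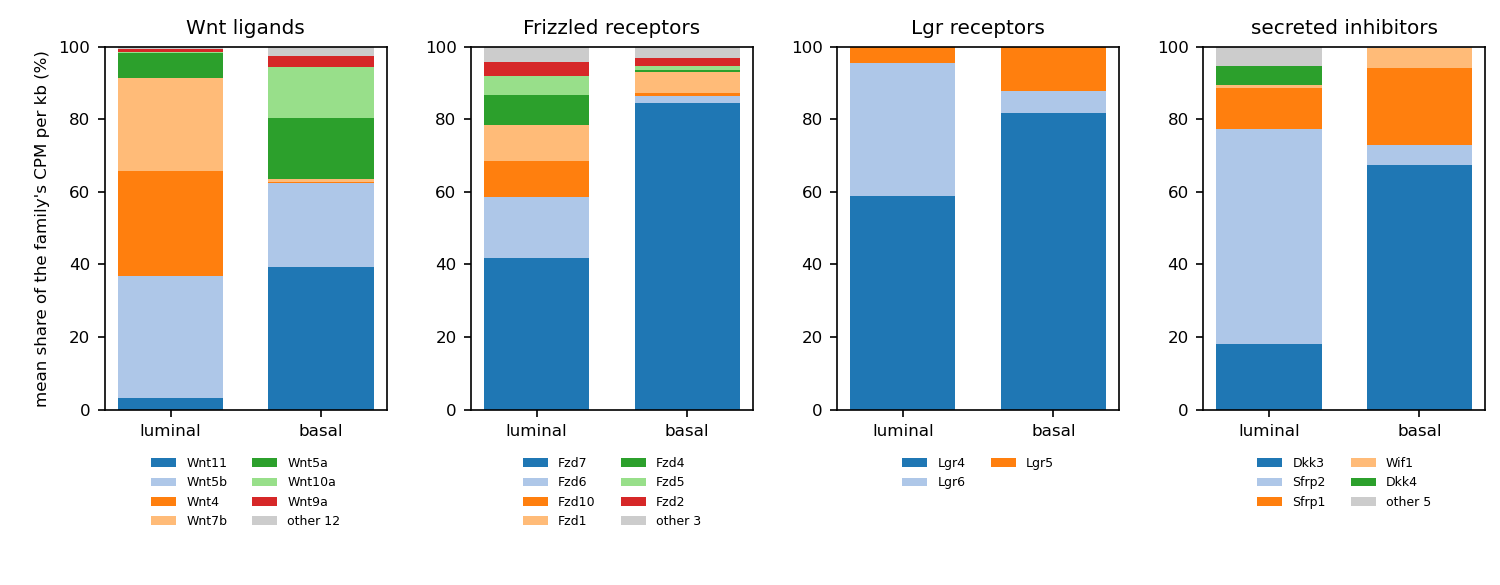
Mean share of each gene in the summed CPM per kb of its family, in percent, over 5 luminal and 5 basal libraries. Genes under 3% in both cell types are pooled as other. The spread between libraries is given in the text for the shares named there. Fzd7 takes 84.6% of the basal and 41.8% of the luminal Frizzled sum, and the ligand sum passes from Wnt5b, Wnt4 and Wnt7b in luminal to Wnt11, Wnt5b, Wnt5a and Wnt10a in basal libraries.

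Axin2, a direct target of beta-catenin in most tissues, was at 5.99, 8.32, 6.89, 5.19 and 10.2 CPM in basal and at 0.438, 1.53, 0.613, 0.916 and 0.761 CPM in luminal replicates 1 to 5. All basal libraries were above all luminal ones (log2 fold change -3.08, SE 0.37, adjusted p = 4.44e-06). An antisense gene covers 4.86% of its exon bases. Procr, the protein C receptor and a marker of a mammary stem cell population and of endothelium, was at 5.55, 8.46, 11.2, 10.4 and 5.99 CPM in basal and at 1.69, 1.00, 1.04, 0 and 0.952 CPM in luminal replicates 1 to 5. The groups did not overlap (log2 fold change -3.12, SE 0.52, adjusted p = 0.000110). The endothelial markers were also higher in basal libraries for Cdh5, at 2.69 to 6.69 CPM against 0.0527 to 0.491 CPM, whereas Pecam1 and Tek were not called (log2 fold changes -0.47 and 0.65) and Kdr had too few counts. The lineage stain named above includes CD31, the product of Pecam1, and the part of endothelial cells in the level of Procr was not tested.

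The spread between libraries of a group was close to that of genes in general. The median SD of log2(CPM + 1) was 0.35 in luminal and 0.27 in basal libraries for the 35 genes, and 0.32 and 0.25 over all genes tested. In luminal libraries some of the genes, but not most, shared an order of the replicates. Replicates 1 and 5 held the highest 2 luminal values for 15 of the 35 genes (42.9%), among them Wnt7b, Fzd4, Fzd6, Fzd10, Lrp5 and Lgr6, against 19.4% of all genes tested. Replicate 4 held the lowest luminal value for 16 of the 35 (45.7%), against 29.9% of all genes tested. This order was noticed in the values and then counted. The luminal progenitor markers Kit, Elf5, Cd14 and Aldh1a3 summed to 2897, 909, 874, 851 and 1977 CPM in luminal replicates 1 to 5, and the hormone-sensing markers to 1178, 821, 876, 802 and 1048 CPM. In both sums replicates 1 and 5 were the highest and replicate 4 the lowest. Within the progenitor sum, replicates 1 and 5 were the highest for Kit, Elf5, Cd14 and Aldh1a3 alike. Replicate 4 was the lowest for Elf5 and Aldh1a3 only. Kit was lowest in replicate 3 (129 CPM, against 138 CPM in replicate 4) and Cd14 in replicate 2 (461 CPM, against 488 CPM in replicate 4). Cd14 alone was at 2061 CPM in replicate 1. Within the hormone-sensing sum, Pgr was highest in replicates 1 and 5 but lowest in replicate 2 (611, 86.0, 248, 253 and 426 CPM). Foxa1 and Esr1 were lowest in replicate 4, at 198 and 85.7 CPM. Areg and Cited1 were lowest in replicate 1, and Esr1 and Foxa1 highest in replicate 3. The 5 general luminal markers summed to 11522, 11649, 9482, 13927 and 13546 CPM, with replicate 4 the highest. Whether the make-up of the luminal sort has a part in this was not tested.

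The remaining machinery of the pathway was read from a list of 51 genes. Of these, 44 were tested and 29 were called, 7 towards luminal and 22 towards basal cells, which is 65.9% of those tested, close to the 64.8% of all genes. For secretion of the ligands, Wls, the carrier of Wnt proteins to the membrane, ranged from 96.1 to 146 CPM in luminal and from 146 to 211 CPM in basal libraries (log2 fold change -0.59, SE 0.15, adjusted p = 0.00372). Porcn, which attaches the lipid, was not called (log2 fold change 0.35, SE 0.38, adjusted p = 0.439). Notum, which removes the lipid, was at or below 0.229 CPM in every library.

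Among modulators outside the set, Dkkl1, a secreted relative of Dkk3, was the reverse of Dkk3. It was at 97.9, 86.1, 67.9, 110 and 124 CPM in luminal and at 0.561, 0.136, 0, 0 and 0.719 CPM in basal replicates 1 to 5 (log2 fold change 8.31, SE 0.48, adjusted p = 3.21e-09). The basal libraries held 23 counts of it. Without basal replicate 5 its log2 fold change was 8.99, and with limma voom it was 9.26. Apcdd1, an inhibitor at the membrane, was higher in basal cells (log2 fold change -3.78, SE 0.54, adjusted p = 2.68e-05), as was Nkd1, a feedback inhibitor of Dishevelled. Nkd1 was at 43.2, 96.2, 78.7, 43.5 and 34.8 CPM in basal and at 0.250, 0, 0.0613, 0.0764 and 0.254 CPM in luminal replicates 1 to 5 (log2 fold change -8.80, SE 0.49, adjusted p = 2.31e-09). Celsr1, a polarity cadherin, was higher in luminal cells (log2 fold change 1.00, SE 0.31, adjusted p = 0.0116), although the groups overlapped.

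Beta-catenin itself, Ctnnb1, was not called, at 488 ± 108 CPM in luminal and 454 ± 67.8 CPM in basal libraries (SD, n = 5; log2 fold change 0.10, SE 0.18, adjusted p = 0.626). Ctnnbip1, which keeps beta-catenin from TCF proteins, was higher in luminal cells (log2 fold change 1.19, SE 0.17, adjusted p = 2.08e-05). The TCF genes differed among themselves. Tcf7 was at 34.6 ± 5.39 CPM in basal and 4.06 ± 1.14 CPM in luminal libraries (SD, n = 5), a log2 fold change of -3.09 (SE 0.21, adjusted p = 1.25e-08). Tcf7l1, mostly a repressor, was at 58.9 ± 6.29 and 13.5 ± 1.50 CPM (SD, n = 5), a log2 fold change of -2.12 (SE 0.14, adjusted p = 1.33e-08). Tcf7l2 was only just past the threshold in the luminal direction (log2 fold change 0.38, SE 0.16, adjusted p = 0.0472), and 12 settings ended the call (adjusted p between 0.0510 and 0.137), the replicate number as a block among them (adjusted p = 0.0719). Lef1 was at or below 0.938 CPM in every library. Pygo1, a co-activator of beta-catenin, was higher in basal cells (log2 fold change -2.75, SE 0.40, adjusted p = 3.04e-05), and Tle2, a co-repressor, in luminal cells (log2 fold change 0.96, SE 0.32, adjusted p = 0.0157). The groups of Tle2 overlapped, at 5.82 to 21.3 CPM in luminal and 4.56 to 9.48 CPM in basal libraries.

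Known targets went both ways. Ccnd1, which encodes cyclin D1, was at 96.8 ± 27.2 CPM in luminal and 4.80 ± 0.478 CPM in basal libraries (SD, n = 5), a log2 fold change of 4.33 (SE 0.22, adjusted p = 7.76e-10). Myc was at 50.6 ± 9.38 CPM in luminal and 357 ± 65.2 CPM in basal libraries (SD, n = 5), a log2 fold change of -2.82 (SE 0.18, adjusted p = 8.77e-09). Sp5 had no count in luminal libraries and 30 counts over the basal ones, of which replicate 1 held the largest part at 1.18 CPM.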

How the data were processed

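RNA of sorted luminal and basal cells was sequenced from libraries that the study describes as poly(A)-selected. The authors deposited raw counts per gene, whole numbers with no normalization. The submitters' processing notes name cutadapt 4.2, Bowtie2 2.3.5.1 and the builds mm10 and hg19, with no role given, and the study describes alignment to mm10. The counting tool and its use of strand are not given in the sources used here. Bowtie2 does not align across splice junctions, which can lower genes with short exons. The study describes fewer replicates per condition than the 5 here.

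Entrez identifiers were matched to symbols through RefSeq for 24570 of 24594 genes, and 24 stayed without one. Genes were filtered with filterByExpr (minimum count 10, total 15), leaving 14609. The cell types were compared with edgeR 4.0.16 (R 4.3.3), TMM factors and the quasi-likelihood test with cell type as the term, and p-values were adjusted by Benjamini-Hochberg over all genes tested. The SE is the log2 fold change over the square root of F. CPM used the TMM-scaled total, and CPM per kb the merged exon length of GENCODE M21 (GRCm38), known for all 55 genes. Positions of genes are from RefSeq on GRCm38, while their strand and their overlap with antisense genes are from GENCODE M21. For Wnt6, Wnt10a, Fzd9 and Wif1, with few luminal counts, the ratio of pooled counts is given with an exact 95% interval. This interval covers counting error only. Values in every library are given for genes called with at least 2-fold change and at least 1 CPM, and for Lrp5, Lrp6, Axin2, Lgr5, Procr, Rnf43 and Znrf3. Of the wider pathway, the 5 called genes with at least 1 CPM and the largest changes in each direction are named, and Lef1, Tcf7, Tcf7l1, Tcf7l2, Ctnnb1, Porcn, Wls, Nkd1, Notum and Sp5 whatever their values. Fits were tested on simulated data. The rule for the members uses gene names and no values, but the rule and the lists were set with earlier results of these data known.

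The pairing comes from the number that same-numbered libraries share in their description. Deviations from the group means correlated at -0.10, 0.10, -0.04, 0.15 and 0.06 for numbers 1 to 5. The highest correlation with a library of another number was 0.155, 0.152, 0.155, 0.077 and 0.074. It was above the same-number value for every number but 4. As a check for duplicate libraries, replicate pairs were compared by chi-square, which per degree of freedom was at least 14.4 in basal and 31.3 in luminal pairs. Alternatives were other scaling factors, filters, DESeq2 1.42.0, limma 3.58.1 voom, the replicate block, and leaving out each library.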

Additional observations from a re-analysis of the deposited data

Results flagged for a closer look

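Each of the 55 genes was looked at for a library far from the other 4 of its group by Dixon's test. Of 89 groups with more than 3 counts in some library, 13 were marked. Chance marks about 1 in 20 groups of well-measured values, but many of these groups hold few counts, and a single library with counts among libraries at 0 is always marked, so the number marked is no measure of excess. Basal replicate 4 stood apart for Wnt3 at 15.4 CPM, for Wnt4 at 7.81 CPM and for Wnt10b at 2.06 CPM. The other basal libraries were at 0 to 1.56 CPM for Wnt3 and 0.312 to 1.14 CPM for Wnt4. Of the genes near Wnt4, Cdc42 was at 255 CPM in basal replicate 4 and at 231 to 270 CPM in the others, and Zbtb40 was at 7.06 CPM against 7.86 to 9.36 CPM. Near Wnt3, basal replicate 4 was above the range of the others for Gosr2 (85.1 CPM against 67.1 to 80.3), Nsf (22.6 against 15.6 to 21.1) and Arf2 (37.3 against 25.7 to 35.1), by far less than for Wnt3 itself, and below it for C130046K22Rik (0.750 against 0.955 to 2.62). Luminal replicate 4 stood apart for Wnt10a at 0.534 CPM, Dkk1 at 0.305 CPM, Dkk2 at 0.305 CPM and Dkk4 at 1.15 CPM. Luminal replicate 1 did so for Wnt2 at 2.19 CPM and Wnt6 at 0.250 CPM, and luminal replicate 5 for Wnt3 at 1.27 CPM and Wif1 at 0.381 CPM. Wnt8b at 0.613 CPM in luminal replicate 3 and Rspo4 at 0.211 CPM in luminal replicate 2 complete the list. Apart from Wnt3 and Wnt4 in basal replicate 4, these are values of 2.19 CPM or less.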

How the results depend on the processing

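Of the 32 called genes of the set, 28 kept direction and call in every setting that tested them, and the others are Fzd6, Fzd10, Lgr6 and Sfrp2. Over 620 alternative values of the 35 tested genes, 591 kept direction and side of the threshold, 25 lost the call and 4 changed sign. In the wider pathway, 788 values gave 26 lost calls, 32 gained calls and 10 changes of sign, in 18 of 44 genes. For the set, luminal calls numbered 5 to 8 and basal calls 18 to 25 across settings. The fewest, 5 luminal and 18 basal, came with at least 10 counts in every library, where 25 of the genes were left to test. The replicate block gave 8 luminal and 24 basal calls. It changed no call in the set and, in the wider pathway, lost Tcf7l2 (log2 fold change 0.37) and gained Celsr2 (-0.49) and Bcl9l (-0.48). Sign changed only for genes that were not called. With library totals, Wnt2b was at 0.0090, Vangl2 at 0.0448, Dvl2 at 0.144 and Gsk3a at 0.0763. With upper-quartile factors, Dvl2 was at 0.0848 and Gsk3a at 0.0054, and with limma voom Apc2 was at -0.0755. Leaving out 1 library gave log2 fold changes of -0.45 to 0.17 for Wnt2b (above 0 without basal replicate 4 or 5) and -0.11 to 0.22 for Lrp5 (below 0 without luminal replicate 1). The ranges were -0.0772 to 0.57 for Porcn, -0.0355 to 0.65 for Sostdc1, -0.10 to 0.0096 for Dvl2 and -0.22 to 0.51 for Apc2, which changed sign without luminal replicates 1, 5, 3 and 4 in that order. The cause was not tested. Upper-quartile factors and library totals moved the median of all genes by 0.12 and 0.19. Over all genes tested, the main fit called 4904 towards luminal and 4558 towards basal cells. Upper-quartile factors gave 5439 and 4051, and library totals 5705 and 3705. The 20 untested genes did not hold enough counts in enough libraries to pass the filter. At this depth 3 counts are 0.158 to 0.232 CPM.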
